A study of Mus musculus with 68 samples.

Results

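The genes described here are 6 acute-phase and inflammatory genes of mouse embryonic fibroblasts (MEFs), Lcn2, Saa3, C3, Serpinb2, Ptx3 and Hp, out of 13378 genes listed in the tables of the series. They were chosen by name, with their control level, their tunicamycin (TM) level and the log2 change between the 2 already known in each genotype, and with attention to strains in which TM lowered Lcn2. These same values, in founder strains and F1 crosses alike, are therefore given below as a description, and no p-value is printed for any of the 6 genes. Where a gene is said to be called, this only describes which thresholds its values passed. The same holds where the 6 genes are counted at an unadjusted p under 0.05. Nothing is read from such calls or counts. TM blocks N-linked glycosylation, so that misfolded proteins collect in the endoplasmic reticulum (ER) and trigger ER stress.

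Primary MEFs of the 8 founder strains of the Collaborative Cross were compared with MEFs of 5 F1 crosses. The founder strains are A/J (A), C57BL/6J (B6), 129S1Sv/ImJ (129), NOD/ShiLtJ (NOD), NZO/H1LtJ (NZO), CAST/EiJ (CAST), PWK/PhJ (PWK) and WSB/EiJ (WSB). The F1 crosses had a B6 mother and a 129, CAST, NOD, NZO or WSB father, and are called x129, xCAST, xNOD, xNZO and xWSB. Cells received 2 ug/ml TM or 0.1% DMSO (control) for 4 h, and 2 or 3 libraries were kept per genotype and treatment, 40 of founder strains and 28 of F1 crosses. Each genotype was a mix of cells from several female embryos of a single litter, so its libraries are cultures of 1 cell mix, the error between them does not cover other litters, and genotype and cell mix cannot be told apart. All 11 fibroblast markers were listed in every genotype, while of 6 hepatocyte markers only 1 was listed. Markers of other cell types were listed too. In the founder set these were 7 of 8 adipocyte, 11 of 14 myeloid, 4 of 6 epithelial and 4 of 5 endothelial markers. In the F1 set they were 7, 5, 3 and 5.

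The acute-phase response is the rise in secreted defence proteins that inflammatory cytokines such as interleukin 6 and interleukin 1 set off, in the liver above all but also in fibroblasts, through NF-kB, STAT3 and C/EBP transcription factors. Lcn2 encodes lipocalin 2, which binds bacterial siderophores and so withholds iron. Saa3 encodes a serum amyloid A protein made outside the liver, C3 the central complement component, Hp haptoglobin, which binds free haemoglobin, Ptx3 a secreted long pentraxin that recognises microbes, and Serpinb2 a serpin that inhibits urokinase-type plasminogen activator.

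The 6 genes lie on 6 chromosomes. In the RefSeq annotation of GRCm38.p6, Lcn2 (ENSMUSG00000026822) spans chr2:32384637-32387739, Saa3 (ENSMUSG00000040026) chr7:46711998-46719615, C3 (ENSMUSG00000024164) chr17:57203967-57228136, Serpinb2 (ENSMUSG00000062345) chr1:107500892-107525600, Ptx3 (ENSMUSG00000027832) chr3:66219887-66225806 and Hp (ENSMUSG00000031722) chr8:109575128-109579172. Promoter entries from RefSeq (GRCm38.p6) were found for 5 of the 6 genes. The 250 bases before the start site are shown for the 4 genes whose TM responses are contrasted below, 2 that were higher with TM in every genotype (Serpinb2, first of 2 listed starts, and Ptx3) and 2 whose response differed in direction or size (Lcn2 and Saa3). Capitals mark matches on either strand to C/EBP (TTNNGNAA) or AP-1 (TGANTCA) letters. They read 5′ to 3′ on the strand of the gene.
Serpinb2, chr1:107511173-107511422, plus strand: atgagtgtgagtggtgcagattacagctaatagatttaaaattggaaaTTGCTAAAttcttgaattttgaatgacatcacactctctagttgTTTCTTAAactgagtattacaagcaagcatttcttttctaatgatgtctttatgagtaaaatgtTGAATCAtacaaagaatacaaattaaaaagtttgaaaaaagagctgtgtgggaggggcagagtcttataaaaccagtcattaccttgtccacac
Ptx3, chr3:66219637-66219886, plus strand: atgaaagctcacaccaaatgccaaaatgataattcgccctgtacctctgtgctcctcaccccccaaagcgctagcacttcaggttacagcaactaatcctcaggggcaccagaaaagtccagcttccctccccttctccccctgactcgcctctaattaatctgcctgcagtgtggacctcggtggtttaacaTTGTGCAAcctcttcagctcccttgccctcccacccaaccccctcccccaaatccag
Lcn2, chr2:32387740-32387989, minus strand: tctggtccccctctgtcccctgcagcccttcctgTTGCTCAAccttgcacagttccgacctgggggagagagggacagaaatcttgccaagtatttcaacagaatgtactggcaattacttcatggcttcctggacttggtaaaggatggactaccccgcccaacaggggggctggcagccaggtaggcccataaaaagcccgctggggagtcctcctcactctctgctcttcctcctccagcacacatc
Saa3, chr7:46715677-46715926, minus strand: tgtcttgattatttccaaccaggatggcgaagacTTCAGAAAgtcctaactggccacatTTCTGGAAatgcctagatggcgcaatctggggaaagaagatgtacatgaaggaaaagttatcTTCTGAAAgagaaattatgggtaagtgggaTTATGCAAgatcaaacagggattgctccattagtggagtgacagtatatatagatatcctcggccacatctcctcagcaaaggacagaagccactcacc

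The Saa3 window held 4 C/EBP matches, the C3 window (chr17:57228137-57228386, minus strand) 3, the Serpinb2 window 2, and the Lcn2 and Ptx3 windows 1 each. Of all 32851 promoter windows of this length, 36.8% held at least 1 such match. The AP-1 letters occurred in the Serpinb2 window alone among the first entries of these 5 genes, and in 6.75% of all windows. Matches to the kappaB consensus, to STAT (TTCNNNGAA) and to the ER stress response element were not seen in the first entries of these 5 genes, and occurred in 7.25%, 7.02% and 0.113% of all windows. In the second Serpinb2 entry 1 STAT match was present. Such matches describe letters in a short window and say nothing of binding.

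Levels are given as scaled CPM, that is the CPM (reads of a gene relative to the library total) after TMM scaling, which were not divided by gene length and so are not compared between genes. Levels are compared within the founder set or within the F1 set only. Log2 changes are the mean of log2(value + 0.1) in TM minus that in control libraries, with the standard error (SE) of a limma fit per genotype, and a gene was tested in a genotype where at least 2 libraries reached 0.5. Adding 0.1 understates the change of genes near 0. Calls of raised or lowered needed both an adjusted p (Benjamini-Hochberg) below 0.01 and a 1.5 fold change or more. The depth was 6442976 to 29528457 reads on genes per library in the 66 libraries for which whole reads were recovered.

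Control libraries that stood apart bear on these genes. WSB control replicate 2 had a summed level of 1478 over the 7 listed adipocyte markers, against 15.7 to 96.1 in the other 39 founder libraries, and xNOD control replicate 3 had 880.0 against 13.8 to 53.8 in the other 27 F1 libraries. Adipoq, the adipocyte hormone adiponectin, was at 98.8 in the WSB library and 0.147 in its sister control library, and at 57.1 in the xNOD library and 0.04 and 0.045 in its sister control libraries. Plin1, which coats lipid droplets, was at 83.5 in the WSB library and listed at 0 in its sister library. Fibroblast markers of these 2 libraries lay within the range of the others. Myeloid and endothelial sums of the xNOD library (23.1 and 18.7) and the endothelial sum of the WSB library (17.9) lay above those of all others of their set (19.0 and 10.4 in the F1 set and 12.2 in the founder set at most). Both of these F1 maxima were in xNZO control replicate 3, whose sister controls had 5.71 and 7.04 in myeloid and 3.11 and 3.09 in endothelial markers. Some other marker sums of the WSB and xNOD libraries were above those of sister controls but within the range of the set. The WSB library was at 36.4 in myeloid and 46.4 in epithelial markers (8.38 and 5.0 in its sister) and the xNOD library at 26.7 in epithelial markers (7.06 and 8.08). Weaker rises of adipocyte markers were seen in NZO control replicate 2 (Adipoq 1.80, against 0.0839 in NZO control replicate 3) and x129 control replicate 3 (Adipoq 1.61, against 0.138 and 0.0977). Results that rest on these libraries are given with and without them, and the part of RNA from adipocytes or other cell types in them was not tested. Outside xNOD control replicate 3, the highest levels of the adipocyte markers Cfd (10.2), Plin1 (1.25) and Fabp4 (11.4) in the F1 set were in xWSB controls. The part of RNA from adipocytes in xWSB was likewise not tested. In bulk RNA, fewer cells of a type and less RNA per cell cannot be told apart.

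The Lcn2 change was below 0 in 3 founder strains, 129, NZO and WSB, and above 0 in the other 5. Among these 3 it stayed below 0 in 129 alone whichever control library was left out. In 129 the control libraries were at 3.67 and 2.37 (64 and 29 reads) and the TM libraries at 2.19, 1.76 and 1.82. All 3 TM libraries of 129 thus lay below both controls, by a narrow gap, and the log2 change was -0.60 (SE 0.30). It was -0.30 without control replicate 2 and -0.91 without control replicate 3, so its size depended on a single library. In 129 the adipocyte marker sum was 15.7 to 21.8 in all 5 libraries, at the low end of the founder range. The single adipocyte marker Cfd changed by -2.63 (SE 0.78) in 129. It also changed by -3.59 in B6 and -3.74 in PWK, where the Lcn2 change was above 0. A link between Cfd and Lcn2 in 129 was not tested. TM libraries lie all below the controls for 20.9% of the genes tested in 129.

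In WSB the control libraries were at 4.72 and 0, and the TM libraries at 0.302, 0.37 and 0.178. The higher of these controls is the library with high adipocyte markers, and the 2 controls enclosed all TM libraries. The log2 change of -0.89 became 1.90 without that library, that is on a lone control library at 0 reads. In NZO the controls were at 0.505 and 0 (9 and 0 reads) and the TM libraries at 0.0912, 0.185 and 0.0864, with 1 or 2 reads each. The change of -0.18 in NZO became 1.11 without control replicate 2. Neither WSB nor NZO passed the filter for testing Lcn2.

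**Figure D1:**
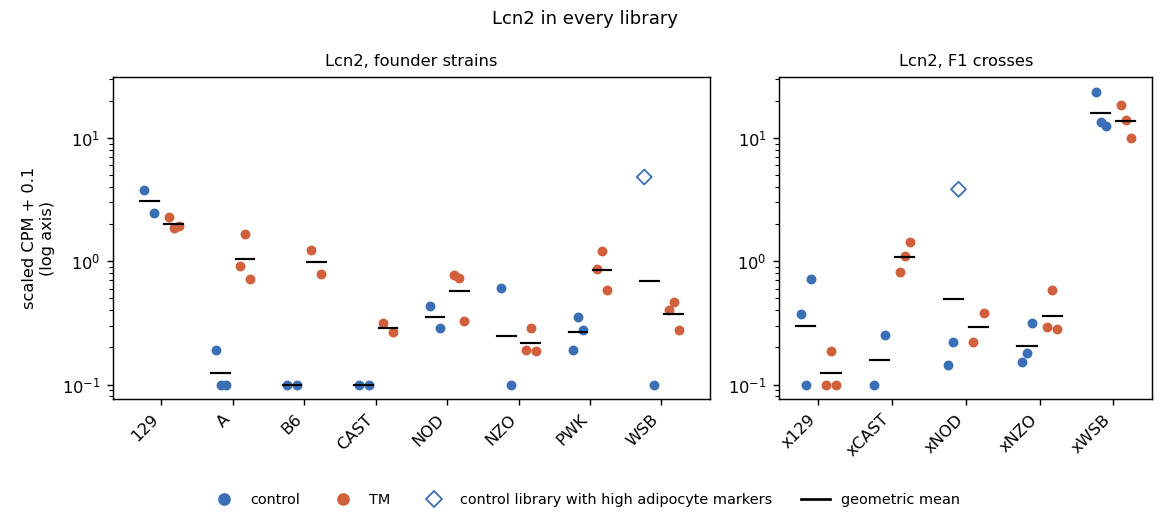
Lcn2 in scaled CPM plus 0.1 (log axis) in each library of the 8 founder strains (left) and 5 F1 crosses (right), with controls in blue, TM in orange, black bars at geometric means of the plotted values, and open diamonds for the 2 control libraries with high adipocyte markers. The 129 controls at 3.67 and 2.37 lie just above the TM libraries, the WSB and xNOD diamonds at 4.72 and 3.73 lie far above their sister controls, and all xWSB libraries lie between 9.83 and 23.5.

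In the other 5 founder strains the Lcn2 change was above 0. In B6 both control libraries had no read and the TM libraries were at 1.13 and 0.68 (12 and 13 reads), which was at least 9.54-fold higher when the control group is set to 3 reads over its libraries. In CAST both controls were again at 0 and the TM libraries at 0.213 and 0.165, at least 1.98-fold higher by the same floor. In A the controls held 1 read in all and the 3 TM libraries 33 reads (0.821, 1.57 and 0.617), a ratio of 36.9 with a 95% counting interval of 6.18 to 1502. PWK had 0.0887, 0.256 and 0.177 in controls and 0.757, 1.11 and 0.489 with TM, without overlap (log2 change 1.68, SE 0.46). In NOD the controls (0.335 and 0.189) and TM libraries (0.671, 0.627 and 0.229) overlapped, with a change of 0.68 (SE 0.55). Of the 5 founder strains in which it was tested Lcn2 was called raised in 1, B6, where 5.04% of genes were. In A, B6, NOD and PWK it passed the filter through TM libraries alone. The direction of its changes there is thus not independent of the filter. The changes nearest 0 were -0.18 in NZO below it and 0.68 in NOD above it.

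Without TM, 129 therefore had Lcn2 in both cultures at a level that the TM libraries of the other 7 founder strains did not reach, the highest of these being 1.57 in A. The order of mean TM levels ran from 129 (1.92) through A (1.00), B6 (0.906), PWK (0.785), NOD (0.509), WSB (0.283) and CAST (0.189) to NZO (0.121), and only 129 and A did not overlap among neighbours in that order.

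The F1 crosses are other cultures, whose levels and changes were likewise known when the genes were chosen. xCAST rose from 0 and 0.151 to 0.717, 1.01 and 1.33 (3 and 56 reads in all, a ratio of 12.9 with a 95% counting interval of 4.21 to 64.6), with a log2 change of 2.78 (SE 0.51), and Lcn2 was called raised there, where 2.52% of genes were. The call was lost without control replicate 2, TM replicate 1 or TM replicate 2. Lcn2 passed the filter in xCAST through TM libraries alone, so the direction of the call is not independent of the filter. xWSB stood at 23.5, 13.4 and 12.3 in controls and 18.2, 13.9 and 9.83 in TM libraries, which overlapped (change -0.21, SE 0.31). Without xWSB control replicate 1 this small change turned to 0.08.

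In x129 the controls were at 0.275, 0 and 0.616 and the TM libraries at 0, 0.088 and 0, that is 19 reads against 1 read, a ratio of 0.0842 with a 95% counting interval of 0.00203 to 0.530 that covers counting error only. The change of -1.28 became -0.65 without control replicate 3, the library with weakly raised adipocyte markers, and the controls and TM libraries overlapped either way. In xNOD the controls were at 0.045, 0.12 and 3.73 and the TM libraries at 0.122 and 0.279. The change of -0.77 became 0.70 without control replicate 3, the library with 880.0 in adipocyte markers, and the TM libraries then lay above both other controls. xNZO had 0.0531, 0.0791 and 0.214 in controls and 0.191, 0.48 and 0.18 in TM libraries, which overlapped. Lcn2 did not pass the filter in x129, xNOD and xNZO.

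Serpinb2 was higher with TM in every genotype, although only 5 of the 13 changes were called. Over all genes 2.45% of gene by genotype pairs were raised. In the founder strains every TM library lay above every control of its strain in 8 of 8 strains, where 22.5% of gene by strain pairs show this. The log2 changes were 0.66 to 1.79, or 1.57 to 3.45 fold. PWK had the lowest level and the largest change, from 2.66, 2.92 and 2.35 to 10.1, 8.16 and 9.84 (1.79, SE 0.16). NZO rose from 6.85 and 6.29 to 23.8, 20.4 and 21.5 (1.72, SE 0.15). The strains with the highest controls had the smallest changes, with 129 at 39.7 and 44.5 in controls and 64.7, 69.9 and 66.4 with TM (0.67, SE 0.14), NOD at 39.9 and 34.5 in controls and 53.7 to 68.9 with TM (0.71, SE 0.14), and WSB at 31.5 and 36.9 in controls and 49.9 to 62.3 with TM (0.66, SE 0.17). Level and change share the control libraries, so that their relation is not independent.

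The order of control means ran from 129 (42.1), NOD (37.2) and WSB (34.2) down through A (19.4), B6 (13.7), CAST (12.0) and NZO (6.57) to PWK (2.64). NOD controls overlapped those of 129 and of WSB, while 129 and WSB were apart. From WSB on, each strain was apart from the next in that order. With TM the order of the strains was the same, from 67.0 in 129 to 9.37 in PWK. The TM libraries of CAST overlapped those of B6 and of NZO, while B6 lay above NZO. Those of NOD overlapped 129 and WSB, while 129 lay above WSB.

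In the F1 crosses all TM libraries of Serpinb2 again lay above all controls in 5 of 5 crosses, where 19.4% of gene by cross pairs show this. xCAST rose from 12.4 and 12.5 to 36.8, 37.8 and 33.5 (change 1.52, SE 0.16). xWSB had 135, 120 and 172 in controls and 323, 308 and 290 with TM (1.12, SE 0.19). The changes in xNZO, xNOD and x129 were 0.67, 0.46 and 0.42. Of the crosses xCAST alone was called raised, where 2.52% of genes were.

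In a fit over all F1 libraries the difference in TM change between crosses (interaction, moderated F statistic in limma) was called for none of the 6 genes (3 at an unadjusted p under 0.05) and for 7 of 12803 genes (0.0547%). The 6 genes were chosen with their TM changes in the crosses known, so nothing is read from their counts. The edgeR fit also called none, while Serpinb2 was called by DESeq2 on whole reads and without xWSB control replicate 3. Side by side, the Serpinb2 changes of xCAST and xWSB exceeded those of B6 (1.05) and of CAST (0.96) and WSB (0.66), while those of x129, xNOD and xNZO lay below B6 and below 129 (0.67), NOD (0.71) and NZO (1.72). The differences between F1 crosses and parents were not tested.

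Ptx3 was also higher with TM in every genotype, and 10 of the 13 changes were called. Over all genes 2.45% of gene by genotype pairs were raised. Each founder strain had all TM libraries above all controls, with changes of 0.95 to 2.17, or 1.93 to 4.50 fold. Over all genes 22.5% of gene by strain pairs show such a separation. Ptx3 was called raised in 6 of 8 strains, against 2.40% of gene by strain pairs over all genes. The Ptx3 level split the strains into 2 groups. CAST controls were at 308 and 259 and PWK controls at 260, 228 and 242, while the other 6 strains lay between 10.3 and 40.1. With TM, CAST reached 573 and 516 and PWK 647, 604 and 700, against 37.9 to 128 elsewhere. The change was highest in A, with 40.1, 16.7 and 19.2 in controls and 99.2, 99.3 and 120 with TM (2.17, SE 0.33), and lowest in CAST (0.95, SE 0.13).

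In the crosses Ptx3 was highest in xCAST, with 115 and 102 in controls and 330, 358 and 409 with TM. Next came xWSB with 36, 32.5 and 29.2 in controls and 84.2, 123 and 139 with TM, and lowest x129 with 7.11, 6.89 and 7.73 in controls and 30.8, 28.1 and 29.7 with TM. The log2 changes lay close together, between 1.64 and 2.01. Ptx3 was called raised in all crosses but xWSB, where 0.185% of genes were called raised. Over all genes 2.54% of gene by cross pairs were raised. The call in xNOD was lost when any of its 3 control libraries was left out, that in xNZO without TM replicate 2 or 3, and xWSB was called without TM replicate 1.

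**Figure D2:**
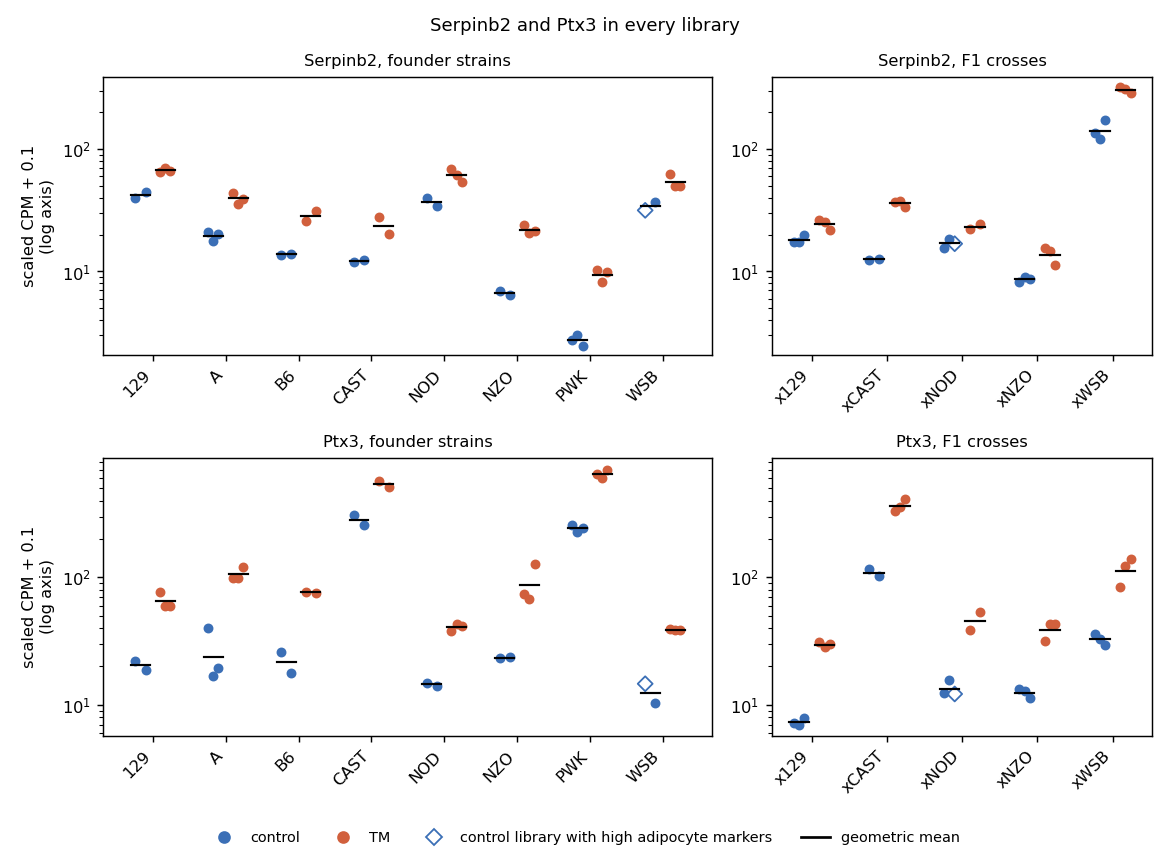
Serpinb2 (top) and Ptx3 (bottom) in scaled CPM plus 0.1 (log axis) in each library of the founder strains (left) and F1 crosses (right), with symbols as in the plot of Lcn2. In each of the 13 genotypes all TM libraries (orange) lie above all controls (blue), with Serpinb2 lowest in PWK (2.35 to 10.1) and Ptx3 highest in CAST and PWK (228 to 700).

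Over all 6 genes, 12 of 43 tested gene by strain pairs were called raised in the founder set, against 2.40% over all genes, and 6 of 24 in the F1 set, against 2.54%. The genes were chosen with this contrast known in both sets, and nothing is read from these counts or from those of lowered pairs. Of the 6 F1 calls, 4 were Ptx3, 1 Serpinb2 and 1 Lcn2. No pair was called lowered in limma, against 1.55% and 1.47% of all pairs, and 2 founder pairs and 0 F1 pairs were below 0 at an unadjusted p under 0.05. The edgeR and DESeq2 fits also called no pair lowered.

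Saa3 varied more in level than in its change. Founder controls ran from 39.5 and 29.1 in 129 and 23.5 and 7.38 in NOD down to 0.449, 0.273 and 0.283 in A and 0.046 and 0.405 in B6. TM libraries lay above all controls in 5 of 8 strains, A, B6, CAST, NZO and PWK, with changes of 0.73 to 2.27. Over all genes 22.5% of gene by strain pairs show this. With TM, A had 1.33, 2.09 and 2.71 (2.27, SE 0.39). In A and B6 Saa3 passed the filter through TM libraries alone, so the direction there is not independent of the filter. PWK, the only founder strain called raised (6.36% of its genes were), rose from 0.976, 0.563 and 0.765 to 2.55, 2.32 and 2.75 (1.63, SE 0.27). In the strains with the highest controls the groups overlapped, with 65.6, 49.2 and 36.2 in TM libraries of 129 (0.53, SE 0.27) and 12.3, 15.1 and 14.6 in NOD (0.08, SE 0.39). WSB had 2.73 and 0.735 in controls and 1.11, 0.493 and 0.801 with TM, and its change of -0.83 became 0.05 without control replicate 2.

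xWSB held far more Saa3 than any other cross. Its controls were at 1037, 476 and 426 and its TM libraries at 663, 698 and 631, while the other 11 control libraries of the F1 set had at most 0.675 and the other 11 TM libraries at most 1.93. The TM change in xWSB was 0.16 (SE 0.32), and it turned to -0.08 without control replicate 3. xCAST had 0.347 and 0.0503 in controls and 1.54, 0.867 and 1.93 with TM (2.51, SE 0.51). It was called without control replicate 2 or TM replicate 3 but not with all libraries. There, too, Saa3 passed the filter through TM libraries alone.

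No C3 change was called in any genotype, and the 2 changes below -1 were in the genotypes with a control library high in adipocyte markers. In 129 the controls were at 11.8 and 9.5 and the TM libraries at 3.96, 7.67 and 7.21, all below the controls (-0.80, SE 0.31), as for 20.9% of genes in 129. NOD was the only founder strain with all TM libraries above the controls, from 5.83 and 7.06 to 8.15, 7.36 and 7.09 (0.22, SE 0.17), as for 18.4% of genes in NOD. In the other strains but WSB the groups overlapped, with changes of -0.50 to -0.02. WSB controls were at 121 and 0.294 and TM libraries at 0.302, 0.37 and 0.712, and the change of -3.69 (SE 1.73) became 0.44 without control replicate 2. xNOD controls were at 1.62, 1.44 and 73.5 and TM libraries at 0.733 and 0.558 (-2.97, SE 1.61), and without control replicate 3 the change was -1.14, with both TM libraries still below the 2 controls left. In x129 the change of -0.45 turned to 0.35 without control replicate 3, which had 2.84 against 0.688 and 0.293. xWSB had 33.3, 41.4 and 40.8 in controls and 27.1, 33.5 and 33.3 with TM, which overlapped (-0.30, SE 0.18).

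Hp was low in most genotypes. Founder levels outside WSB control replicate 2 lay between 0 and 3.23, and 6 of 8 strains passed the filter. PWK was the only genotype with TM libraries all on the same side of the controls, at 1.42, 0.605 and 1.41 against 1.51, 2.56 and 2.18 (-0.87, SE 0.33), and all below for 23.4% of genes in PWK. WSB controls were at 57.5 and 0.147 and its TM libraries at 0.101, 0 and 0.178. xNOD controls were at 0.18, 0.12 and 37.4 and its TM libraries at 0.183 and 0.168. The changes of -4.41 in WSB and -2.26 in xNOD became -0.48 and 0.15 without those controls. xWSB held 21.6, 17.7 and 10.0 in controls and 18.6, 18.7 and 15.5 with TM (0.16, SE 0.28).

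**Figure D3:**
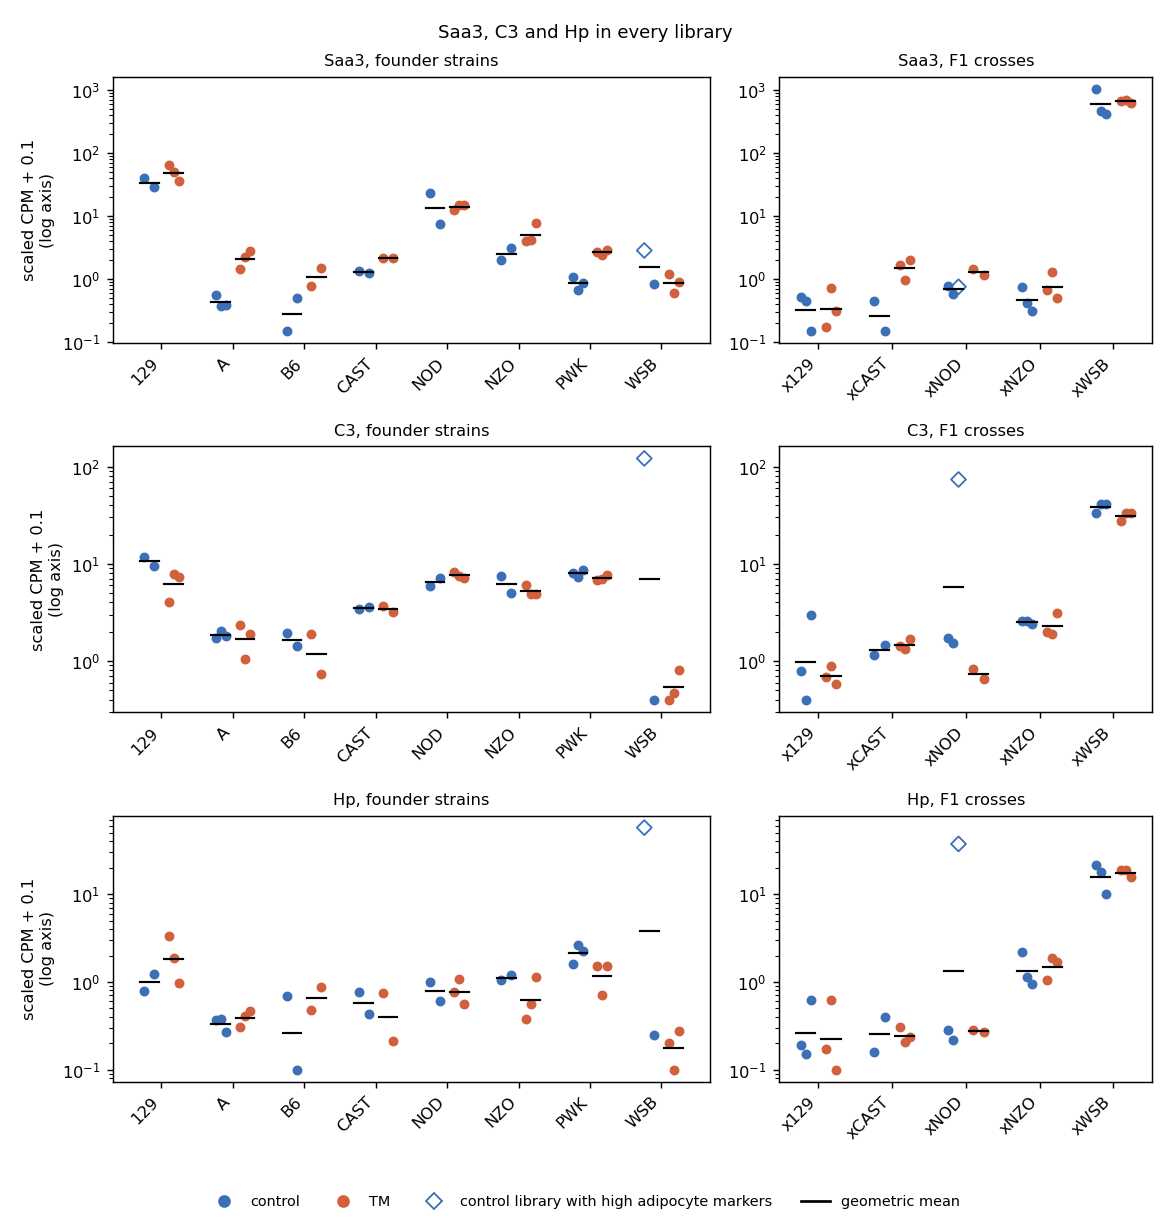
Saa3 (top), C3 (middle) and Hp (bottom) in scaled CPM plus 0.1 (log axis) in each library, with symbols as in the plot of Lcn2. The xWSB libraries hold 426 to 1037 of Saa3 where all other F1 libraries hold at most 1.93, and the open diamonds mark C3 at 121 and 73.5 and Hp at 57.5 and 37.4 in the 2 libraries with high adipocyte markers.

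**Figure D4:**
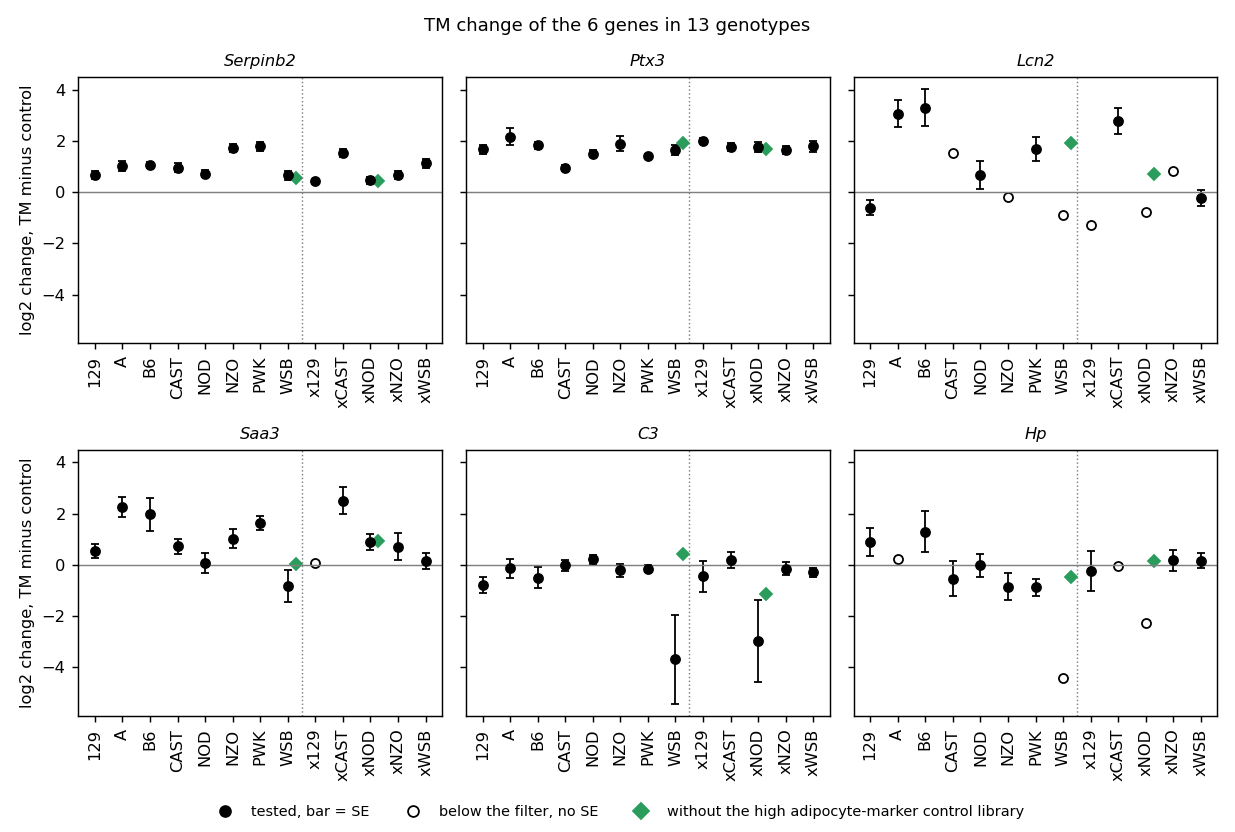
Log2 change (TM minus control) of the 6 genes in the 8 founder strains and, right of the dotted line, 5 F1 crosses, with SE bars where the gene passed the filter and open circles where it did not. Green diamonds give WSB and xNOD without the control library with high adipocyte markers. Serpinb2 and Ptx3 lie above 0 in all 13 genotypes, while the Lcn2 changes run from -1.28 in x129 to 3.29 in B6, a value set by the added 0.1 since both controls are at 0, and those of Lcn2 in WSB and xNOD move from -0.89 and -0.77 to 1.90 and 0.70.

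C3, Hp and Lcn2 were high together with the adipocyte markers in the 2 libraries. In scaled reads, C3 stood to Cfd, the adipocyte serine protease adipsin, as 0.264 in the WSB library and 0.288 in the xNOD library. The same ratio to Cfd was 0.125 and 0.146 for Hp and 0.0103 and 0.0146 for Lcn2. Saa3 was at 2.73 in the WSB library against 0.735 in its sister, while that of the xNOD library (0.649) lay within its sister controls (0.48 and 0.675), and Serpinb2 and Ptx3 of both libraries were within 2-fold of their sisters. In xWSB the adipocyte marker sum was 14.9 to 38.6, within the range of the other crosses. Outside xNOD control replicate 3 the highest sum was 53.8, in xNZO TM replicate 1. Of the single markers, Cfd (10.2), Plin1 (1.25) and Fabp4 (11.4) were highest in xWSB controls once xNOD control replicate 3 was set aside. The myeloid sum of xWSB was 4.80 to 11.1. Its highest value in the F1 set outside xNOD control replicate 3 was 19.0, in xNZO control replicate 3. A link of adipocyte markers to the C3, Hp and Lcn2 levels of xWSB was not tested.

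**Figure D5:**
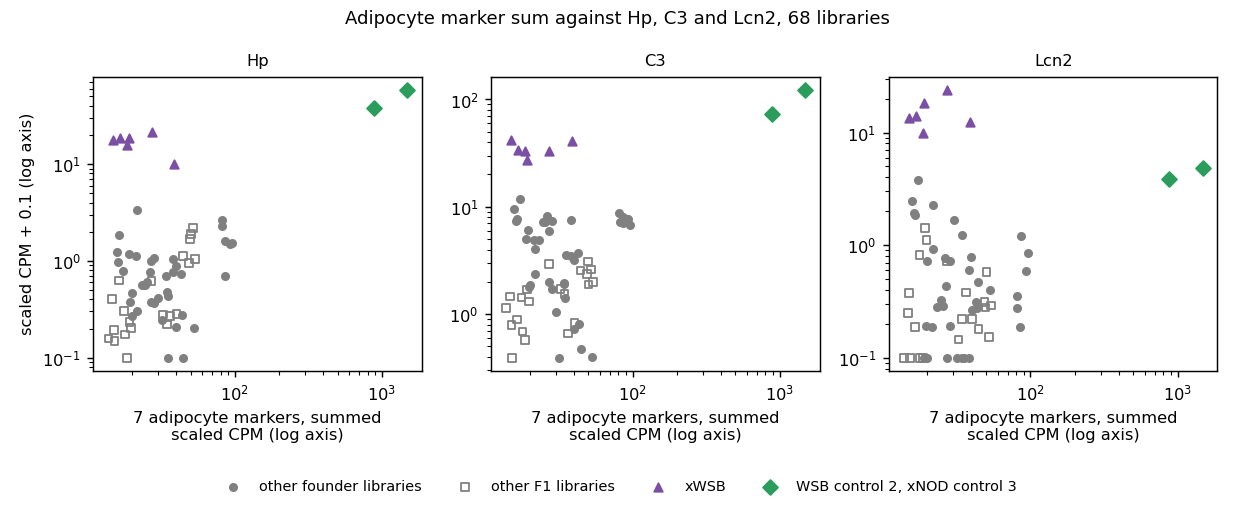
Summed level of 7 adipocyte markers (scaled CPM, log axis) against Hp, C3 and Lcn2 (scaled CPM plus 0.1, log axis) in 68 libraries, with the founder and F1 sets scaled apart. The 2 green diamonds at sums of 1478 and 880.0 hold the highest C3 and Hp, and the purple xWSB triangles hold high C3, Hp and Lcn2 at marker sums of 14.9 to 38.6.

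xWSB was the highest cross for 5 of the 6 genes without TM once the xNOD library was left out. Its control mean was 55.2 times that of the next cross for Lcn2, 1119 times for Saa3, 15.98 times for C3, 7.84 times for Serpinb2 and 12.5 times for Hp. For Ptx3 it was 0.300 times the mean of xCAST. In a fit over the control libraries of the 5 crosses, which called a level difference for 21.4% of 12787 genes, Serpinb2, Ptx3, Saa3 and Lcn2 were called, and C3 and Hp were not. Without the 2 libraries with high adipocyte markers C3 and Hp were called as well, and without xWSB Ptx3 and Serpinb2 alone were called. The 6 genes were chosen with their control levels in the crosses known, so nothing is read from these calls. As every xWSB library came from 1 cell mix, the cross and the culture cannot be told apart.

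Genes of the pathway lists were set side by side in the same way, by whether all 3 xWSB controls lay above or below all 11 other F1 controls, as 5.73% and 8.12% of 12787 genes did. Of 33 NF-kB and interleukin 6 type genes, 7 lay above and 0 below. They were the cytokines Il6 and Il1a, the NF-kB subunit gene Nfkb1, the inhibitor and co-regulator genes Nfkbia, Nfkbiz and Bcl3, and Cebpg, of the C/EBP family. Il6 was at 60.2, 45.8 and 57.7 in xWSB controls against 1.03 to 6.92 in the others, and Il1a at 39.1, 42.0 and 52.6 against 0 to 0.596. Of 14 acute-phase genes 3 lay above and 0 below, with Cp, the copper carrier ceruloplasmin, at 16.8, 30.5 and 32.6 against 0.402 to 2.85. The other two were Mt2 and Serpina3g. Of 24 complement genes 4 lay above and 2 below. Of 18 genes of the serpins and plasminogen system 7 lay above and 1 below, several of them members of clusters of similar copies. Of 10 pentraxins, lipocalins and receptors 0 lay above and 2 below. The lists were looked at in xWSB after its levels of the 6 genes were seen.

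Other genes of these pathways were counted in lists over all 13 genotypes, beside the 2.45% of gene by genotype pairs raised and 1.52% lowered over all genes and a median change of -0.02. Among signaling genes of the NF-kB and interleukin 6 type, 94 of 437 pairs were raised (21.5%) and 2 lowered (0.458%), with a median change of 0.37, and 19 of 35 tested genes were raised in at least 1 genotype. Lif, a cytokine of the interleukin 6 family, was raised in 12 of 13 genotypes (2.22 to 8.57 fold), as was Tnfaip3, an NF-kB target that ends the signal (1.86 to 8.71 fold). Socs3, an inhibitor of this cytokine signaling, was lowered in 2 genotypes, with changes of -0.996 to 0.06 over all 13.

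Among 34 other acute-phase genes, of which 14 were tested, 6 of 149 pairs were raised (4.03%) and 3 lowered (2.01%), with a median of 0.03. The metallothionein Mt2 was raised in 4 genotypes (changes of 0.24 to 1.16) and the serpin Serpina3g in 2 of 12 (up to 2.64 fold). Fn1, fibronectin, was lowered in 3 (-1.44 to -0.02 over all genotypes). These were B6 (-0.59), WSB (-1.36) and xNOD (-1.44). WSB and xNOD hold the control libraries with high adipocyte markers, and the xNOD call was lost without that library. Serpina3g belongs to a cluster of near-identical copies between which reads can be split. Among 34 complement genes none of 271 pairs was raised in limma and 6 were lowered (2.21%), with a median of -0.20, and at an unadjusted p under 0.05 the raised pairs were 6 in founder strains and 3 in crosses. edgeR raised none of them and DESeq2 1. Cfd was lowered in 3 of 7 genotypes (-4.15 to -1.75) and Masp1, a protease of the lectin pathway, in 2 of 13 (-1.61 to -0.19). The Masp1 calls were in B6 and WSB, and its lowest change was in xNOD. Cfd stood near 0 in most libraries, with medians of 0.089 in the founder set and 0.138 in the F1 set outside the 2 libraries with high adipocyte markers. In NZO and x129 it passed the filter through controls alone (6.12 and 0.671, and 0.596, 0.586 and 4.27). The direction of its changes is thus not independent of the filter.

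Among 28 genes of the serpins and plasminogen system Serpina3g alone was called, with 2 of 212 pairs raised (0.943%) and none lowered, and a median of -0.03. At an unadjusted p under 0.05, 12 founder and 10 F1 pairs were lowered, and edgeR lowered none and DESeq2 1. Among 16 pentraxins, lipocalins and receptors 5 of 123 pairs were raised (4.07%) and 8 lowered (6.50%), with a median of -0.51. All 5 raised pairs were Tlr2, a receptor for bacterial lipoproteins (0.55 to 2.53 over all genotypes). Lrp1, a scavenger receptor, was lowered in 3 (-1.82 to -0.41) and Nptx1, a neuronal pentraxin, in 2 (-2.10 to -0.66). The Lrp1 calls were in B6, WSB and xNOD and the Nptx1 calls in B6 and xNOD. The count of 8 lowered pairs was 5 without the 2 libraries with high adipocyte markers.

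The genes whose log2 change followed that of each member most closely over the 13 genotypes were found among 11664 or 11663 genes past the filter in all of them. These are descriptions, since the crosses share B6 mothers and their fathers' strains with the founder set, so that the 13 genotypes are not independent. For Lcn2 they were Rbak (Pearson r = 0.767), Ttll1 (0.766), Pde1a (0.765), Slc7a2 (0.757) and Podxl (0.748), of which only Rbak was among the first 5 without the 2 libraries with high adipocyte markers. For C3 they were Pnpla2 (0.971), Acsl1 (0.951) and Scd1 (0.944), and for Hp Lipe (0.945), Phex (0.903) and Fabp4 (0.884). None of these 6 was among the first 3 without the 2 libraries. For Serpinb2 they were Rgs16 (0.896), Fam110c (0.866) and Fosb (0.844), and Rgs16 stayed first at 0.895 without them. For Ptx3 they were Decr2 (0.789), Bdkrb1 (0.779) and Cnpy3 (0.757), and for Saa3 Plek (0.837), Sele (0.783) and Hirip3 (0.780).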

How the data were processed

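RNA from 68 MEF libraries was sequenced by the study as single-end TruSeq mRNA reads. Per the labels' processing notes and the study's methods, the authors used FastQC, Trimmomatic, TopHat 1.4.1 on strain-specific GRCm38/mm10 sequence, and edgeR TMM normalization. The authors also removed libraries that clustered with the wrong treatment, which can narrow the spread within groups. The counting tool and strand setting are not given in the sources used here. The deposited tables are called FPKM, but in 66 of 68 libraries all values are whole multiples, within 0.02, of the worth of 1 read. The deposited values are thus a TMM-scaled CPM signal not divided by length, and whole reads were recovered from them. For PWK TM replicate 2 and WSB TM replicate 1 the step could not be told from rounding, so these are left out of read counts. The founder and F1 tables were normalized apart, and 3 lines of the F1 tables that name no gene were left out.

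Log2(value + 0.1) was fitted per genotype with limma 3.58.1 (R 4.3.3, empirical Bayes with trend), for genes at 0.5 or more in at least 2 libraries, with Benjamini-Hochberg adjustment over all genes tested. Cross by treatment interaction and control levels between crosses were fitted with moderated F tests over 28 and 14 F1 libraries. The choice of the 6 genes used their values in both sets, so calls for them are descriptions and their p-values are not given. The fits were tested on simulated data with the same dispersion for every gene, and the TM fit on the design of xNZO, with 3 libraries per group. These simulations do not cover TM fits with 2 libraries in a group, nor control libraries that stand apart. As alternatives, the pseudocount was set to 1, the filter dropped or set to a mean of at least 2, and fits were made with median-of-ratios scaling, no variance trend, a replicate block, 1 fit per set, edgeR 4.0.16 and DESeq2 1.42.0 on reads, and leaving out each library. Fits without the 2 libraries with high adipocyte markers and without xWSB were added after seeing the data. Replicate numbers in the labels were not used to pair libraries in the main fits. Deviations from group means correlated above 0.1 in 11 of 29 same-numbered pairs (median 0.0237, from -0.651 to 0.527). With 2 or 3 libraries per group this cannot settle whether libraries were paired. The genes, lists and tests were chosen with earlier results of these data known. From each list the 2 genes called in most genotypes in each direction are named, and for each gene the 3 (Lcn2, 5) with the most similar changes. All p-values measure the spread between cultures of 1 cell mix, and counting intervals and floors (3 reads) cover counting error only. Bases of the promoters come from RefSeq.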

Additional observations from a re-analysis of the deposited data

Results flagged for a closer look

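Lcn2 in the founder strain 129 had every TM library below every control (log2 change -0.60), while in 4 other founder strains, A, B6, CAST and PWK, every TM library lay above every control. C3 in 129 likewise had every TM library below every control (-0.80), while in NOD every TM library lay above. TM libraries lay all below the controls for 20.9% of genes in 129. They lay all above for 22.5% of founder gene by strain pairs over all genes. The difference between strains was not tested, as the genes were chosen on this contrast. No group had the 4 libraries needed to test for an outlying sample.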

How the results depend on the processing

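Among the F1 crosses, 6 pairs of gene and cross were raised and 0 lowered, with 5 to 7 and 0 to 0 when any library was left out, 10 raised by DESeq2, and 1 lowered (C3 in xNOD, -1.14) with the replicate number as a block. Among the founder strains the counts were 12 raised and 0 lowered, with 11 to 14 and 0 to 1 when any library was left out (Saa3 without NOD control replicate 3, C3 without WSB control replicate 3), 4 raised with no trend, and 1 lowered (Hp in WSB) with 1 fit over the set. The interaction was called for 0 of the 6 genes, and for 1, Serpinb2, by DESeq2 and without xWSB control replicate 3 (0 to 1 over all libraries left out). A difference in control level was called for 4 of 6 genes, for 4 to 6 with any library left out, and for 2 without xWSB. These levels were known when the genes were chosen. The replicate block, which could not be fitted in B6 and CAST and left those as they were, called the interaction for 0 of the 6 genes. For the lists, leaving out any library gave 5 to 8 raised and 2 to 5 lowered acute-phase pairs (5 without WSB control replicate 3), 0 to 1 raised (1 without xNOD TM replicate 2) and 4 to 10 lowered complement pairs (10 without WSB control replicate 3), 1 to 3 raised (1 without any NOD TM library or PWK TM replicate 2) and 0 to 1 lowered serpin pairs (1 without WSB control replicate 3), 87 to 108 raised and 1 to 7 lowered NF-kB and interleukin 6 type pairs (7 without xNOD TM replicate 2, 5 without NZO TM replicate 3, and 1 without any x129 control or x129 TM replicate 3), and 4 to 6 raised and 5 to 11 lowered pentraxin, lipocalin and receptor pairs (5 without any xNOD control). Complement had 1 raised pair by DESeq2 and 3 lowered at a mean of at least 2, the serpins 1 lowered by DESeq2 and with 1 fit over the set, NF-kB and interleukin 6 type genes 4 lowered with the block, 6 with 1 fit and 5 by DESeq2, and pentraxins, lipocalins and receptors 8 raised with 1 fit, 14 lowered with the block and 5 without the 2 libraries with high adipocyte markers. The causes were not tested. Where the filter was passed with any library left out, changes that turned sign in the F1 crosses ran from -0.43 to 0.077 for Lcn2 and -0.082 to 0.56 for Saa3 in xWSB, from -1.11 to 0.35 for C3 and -0.64 to 0.34 for Hp in x129, from -0.066 to 0.53 for Hp in xNZO and from -0.16 to 0.39 for Hp in xWSB, and in the founder strains from -0.75 to 0.91 for Saa3 in NOD and -1.71 to 0.049 in WSB, from -0.39 to 0.20 for C3 in A, -1.19 to 0.19 in B6, -0.12 to 0.083 in CAST and -0.52 to 0.091 in NZO, and from -0.10 to 1.74 for Hp in B6, -0.97 to 0.36 in CAST and -0.39 to 0.35 in NOD. No called change turned sign. With few reads of Lcn2 and Hp, most differences near 0 were not detectable at this depth.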
